A study of Homo sapiens and Mus musculus with 12 samples.

Results

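Ly49 receptors are C-type lectin-like proteins that natural killer (NK) cells of the mouse use to read MHC class I molecules on other cells, and each NK cell carries its own mixture of them. Inhibitory members hold an immunoreceptor tyrosine-based inhibitory motif (ITIM) in the cytoplasmic tail, which recruits phosphatases such as SHP-1 when the receptor meets its ligand. Activating members lack the motif and instead use a charged arginine in the membrane to pair with the adaptor DAP12, and Ly49H is known for recognising a protein of mouse cytomegalovirus.

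The 10 genes described here were the rows of the mouse count table with the symbols Klra1, Klra3, Klra4, Klra5, Klra6, Klra7, Klra8, Klra9, Klra10 and Klra17, out of 22021 genes in the table. Of these, 8 encode inhibitory receptors, Ly49A (Klra1), Ly49C (Klra3), Ly49E (Klra5), Ly49F (Klra6), Ly49G (Klra7), Ly49I (Klra9), Ly49J (Klra10) and Ly49Q (Klra17), and 2 encode the activating receptors Ly49D (Klra4) and Ly49H (Klra8). The members are set by symbol and role, and the rule uses no measured value.

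Polyadenylated RNA was sequenced from sorted splenic NK cells of WT mice (Ehmt2 flox/flox, no Cre) and KO mice (Ehmt2 flox/flox with Ncr1-iCre), 3 libraries for each genotype. Both genotypes were on the C57BL/6J background, were matched for age and sex, and were 8 to 12 weeks old. Ehmt2 encodes a histone H3 lysine 9 methyltransferase, and the Cre was expressed from the gene of the NK receptor NKp46, so the floxed allele was targeted in cells that had switched on Ncr1. The sources used here do not say whether each library came from its own mouse, so the p-values measure the spread between these libraries.

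Library totals ranged from 25891680 counts (WT replicate 2) to 37438868 counts. Ehmt2 was measured at 275, 284 and 285 CPM in the WT libraries and at 171, 143 and 137 CPM in the KO libraries. CPM here are gene counts scaled by the library size after adjustment by the trimmed mean of M-values (TMM), not by the library total alone. The log2 fold change of Ehmt2 was -0.91 (SE 0.10, adjusted p = 0.0162 by edgeR's quasi-likelihood test with Benjamini-Hochberg adjustment). One label of the KO libraries names Ezh2 in place of Ehmt2, and Ezh2 had a log2 fold change of -0.23 (SE 0.09), which did not pass the test (adjusted p = 0.116). The 12 NK identity genes summed to between 5614 and 9534 CPM in WT and between 10751 and 12541 CPM in KO, with WT replicate 2 the highest of the WT libraries. The 10 macrophage markers summed to 6709, 2589 and 4993 CPM in WT and to 2520, 1385 and 1927 CPM in KO, and all of them were lower in KO, 6 of them past the test. The 8 B cell markers were also lower in KO, 6 of them at an unadjusted p under 0.05 but none past the adjusted threshold of edgeR or DESeq2, and their sums spanned 539 to 1535 CPM in WT and 93.5 to 501 CPM in KO. A lower share of a cell type and less RNA per cell of that type cannot be told apart in bulk samples.

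The coding sequences show the division into inhibitory and activating members that the comparison below turns on. All 10 genes lie on the minus strand of chromosome 6 in GRCm38, between positions 129831154 and 130386874, a span of 555.7 kb. The start of the coding sequence is given here for both activating members, for the pair with the largest fold changes (Klra5 and Klra10) and for the most abundant inhibitory member (Klra7), 5′ to 3′ on the coding strand, with the 6 codons at the ITIM position in capitals.
Klra8 (Ly49H), chr6:130128125-130128160: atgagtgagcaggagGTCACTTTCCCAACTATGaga
Klra4 (Ly49D), chr6:130065267-130065302: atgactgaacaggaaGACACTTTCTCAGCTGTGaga
Klra5 (Ly49E), chr6:129911426-129911461: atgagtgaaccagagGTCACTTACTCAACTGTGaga
Klra10 (Ly49J), chr6:130281887-130281922: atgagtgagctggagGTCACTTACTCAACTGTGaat
Klra7 (Ly49G), chr6:130231582-130231617: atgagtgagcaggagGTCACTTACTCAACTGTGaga

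The ITIM was searched in the coding frame of the first 60 codons as an isoleucine, leucine or valine codon, any codon, a tyrosine codon, any pair of codons and a leucine or valine codon. It was present in 8 of 8 inhibitory and 0 of 2 activating members, and in 4.08% of 21876 mouse genes whose principal transcript was long enough to search. The 18 bases of the motif were the same in 6 of the 8 inhibitory members.

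The membrane-spanning stretch also separates the same members, at codon 57 and not only there. It is given for both activating members and for 2 inhibitory members, with codon 57 in capitals.
Klra8 (Ly49H), chr6:130126242-130126268: ctctgttcccttCGGctggtaattgtt
Klra4 (Ly49D), chr6:130063125-130063151: ctcatttcccttCGActggtaactgtt
Klra7 (Ly49G), chr6:130229954-130229980: ctctgtttccttCTCctggtaactgtt
Klra1 (Ly49A), chr6:130379012-130379038: ttctgtttccttCTTctggtagctgtt
Codon 57 was picked because it encoded arginine in 2 of 2 activating and 0 of 8 inhibitory members, so this division was set by the choice.

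Outside these positions the genes are close copies of each other. The coding sequences of Klra9 and Klra10 were 96.9% identical, those of Klra3 and Klra10 96.25%, and those of Klra5 and Klra6 91.9%. Activating and inhibitory members did not form separate groups by this measure, since Klra8 was closest to Klra9 (91.9%) and Klra4 to Klra1 (88.5%). Klra17 stood farthest from the others, at 78.7% to its nearest neighbour Klra7 and 75.7% to Klra4.

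The identity bears on the counts, because a read that matches several genes cannot be placed by sequence. Of the windows of 100 bases in the annotated transcripts, 14.4% were also found in another gene's transcripts for Klra8, mostly in the pseudogene Klra14-ps, 5.25% for Klra10, 4.07% for Klra9, 1.83% for Klra7 and 1.78% for Klra3. The share was 0 for Klra1, Klra4, Klra5, Klra6 and Klra17. With windows of 50 bases the shares were 39.8% for Klra10, 33.1% for Klra8, 31.5% for Klra9, 20.7% for Klra3 and 12.3% for Klra7, against 0.656% for Klra5 and 0 for Klra17. With windows of 150 bases the share was 6.0% for Klra8 and 0 for every other member. How the counting treated reads with several matches is not given in the sources used here, so the values of Klra3, Klra7, Klra8, Klra9 and Klra10 are the less certain ones, and the read length was not given either.

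Per kilobase of annotated exon, the activating members were the most abundant Ly49 transcripts in both genotypes. Klra8 stood at 269 ± 120 CPM per kb in WT and 467 ± 25.1 in KO (SD, n = 3), and Klra4 at 229 ± 101 in WT and 306 ± 12.5 in KO. The inhibitory members followed in the order Klra7 (139 ± 40.4 in WT and 219 ± 6.96 in KO), Klra9 (107.5 ± 27.4 and 174 ± 3.74), Klra3 (50.8 ± 17.3 and 68.4 ± 2.26), Klra10 (30.7 ± 6.35 and 61.7 ± 0.687) and Klra1 (18.8 ± 5.91 and 27.4 ± 2.29). Klra6 (9.04 ± 1.53 and 13.9 ± 0.696), Klra5 (3.72 ± 1.54 and 9.47 ± 1.44) and Klra17 (6.69 ± 2.27 and 3.37 ± 1.18) were the least abundant.

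Within every library Klra8 exceeded Klra4, Klra4 exceeded Klra7 and Klra7 exceeded Klra9. The WT ranges of these neighbours overlapped, with WT replicate 2 the highest WT library for each of them, and the KO ranges of all neighbours in the order were separate. Klra5 was above Klra17 in 1 of 3 WT libraries and in 3 of 3 KO libraries. The annotated exons of Klra10 cover 0.823 kb, less than those of the other members, so its level per kb rests on the shortest annotation.

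**Figure D1:**
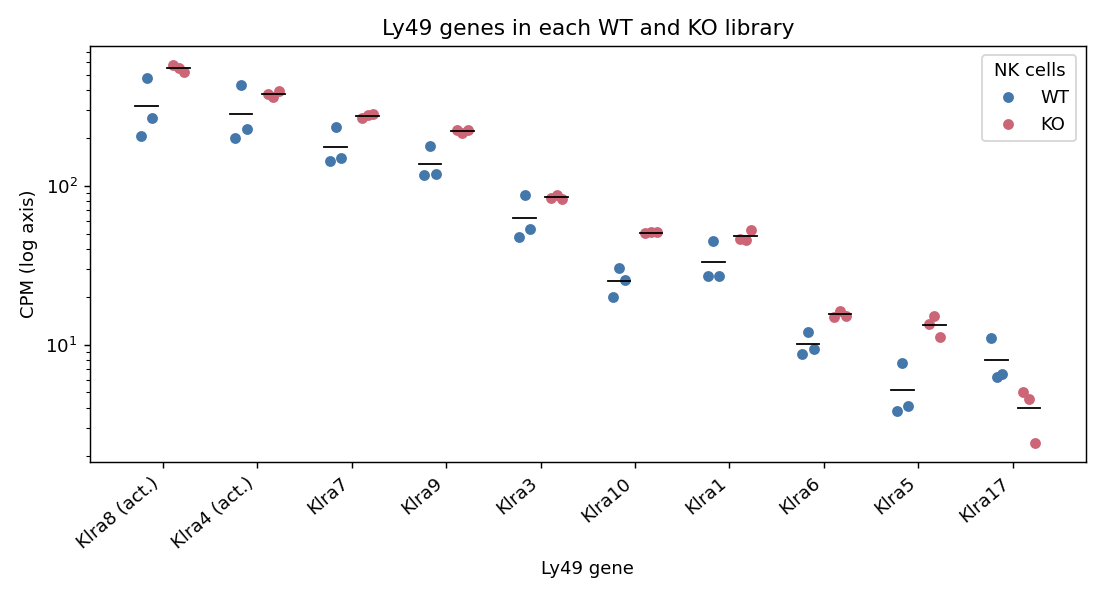
CPM of each Ly49 gene (log axis) in the 3 WT and 3 KO libraries, with genes ordered by CPM per kb in KO, activating members marked and group means as black lines. For Klra10 the WT libraries lie between 19.9 and 30.3 CPM and the KO libraries between 50.1 and 51.2 CPM, whereas Klra17 is the gene whose KO libraries all lie under its WT libraries.

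With libraries scaled by the trimmed mean of M-values (TMM), 9 of the 10 Ly49 genes had higher levels in KO, and 4 of them, all inhibitory, passed the test: Klra5, Klra6, Klra9 and Klra10. Scaled to the NK identity genes instead, 6 of those 9 genes turned to a negative fold change and none was called higher, as set out below. The scaling genes include Il2rb, Tbx21 and Prf1, whose mRNA the paper reports as raised in KO NK cells. A gene was called at an adjusted p under 0.05 in edgeR's quasi-likelihood test, with Benjamini-Hochberg adjustment over 13189 genes, of which 4.44% were called higher and 7.43% lower. No member was called lower by edgeR, while 1 (Klra17) was lower at an unadjusted p under 0.05, as were 20% of genes. Klra17 was also called lower by DESeq2 at an adjusted p under 0.05, as were 1996 of 13955 genes. The median log2 fold change was 0.64 over the inhibitory members and 0.61 over the activating members, beside 0.01 over all genes tested.

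Klra10, which encodes the inhibitory receptor Ly49J, was at 19.9, 30.3 and 25.5 CPM in the WT libraries and at 50.1, 50.9 and 51.2 CPM in the KO libraries. The groups did not overlap, and the KO libraries lay close together. Its fold change was 2.02 (log2 1.01, SE 0.15, 95% interval 0.67 to 1.36, adjusted p = 0.0239 by edgeR's quasi-likelihood test).

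Klra5 encodes Ly49E, the receptor typical of fetal and immature NK cells, and had the largest fold change among the members. It was at 3.83, 7.68 and 4.08 CPM in WT and at 13.5, 15.1 and 11.1 CPM in KO, with every KO library above every WT library. Its fold change was 2.57 (log2 1.36, SE 0.28, 95% interval 0.71 to 2.01, adjusted p = 0.0350). Its closest relative Klra6, encoding Ly49F, was at 8.79, 12.02 and 9.46 CPM in WT and at 14.9, 16.4 and 15.2 CPM in KO, again without overlap. The fold change of Klra6 was 1.54 (log2 0.62, SE 0.14, adjusted p = 0.0417).

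Klra9 encodes the MHC class I receptor Ly49I and was at 116, 178 and 118 CPM in WT and at 224, 217 and 226 CPM in KO. WT replicate 2 was the highest WT library and still lay below all KO libraries. The fold change was 1.62 (log2 0.69, SE 0.16, 95% interval 0.31 to 1.07, adjusted p = 0.0429).

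Klra7, for Ly49G, was at 143, 234 and 149 CPM in WT and at 267, 281 and 284 CPM in KO. The groups were separate here too, but the log2 fold change of 0.66 (SE 0.18, 95% interval 0.24 to 1.09) did not pass the test (adjusted p = 0.0544). Klra1, for Ly49A, was at 27.0, 45.2 and 27.2 CPM in WT and at 46.3, 45.9 and 53.1 CPM in KO. WT replicate 2 came within 1 CPM of the lowest KO library, and the log2 fold change was 0.55 (SE 0.20, adjusted p = 0.0994). Klra3, for Ly49C, was at 47.7, 87.4 and 53.5 CPM in WT and at 83.8, 87.7 and 82.3 CPM in KO. For this gene WT replicate 2 lay within the KO range, and the log2 fold change was 0.43 (SE 0.21, 95% interval -0.06 to 0.92, adjusted p = 0.180).

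Neither activating member passed the test with all 6 libraries. Klra8, for Ly49H, was at 207, 476 and 268 CPM in WT and at 579, 552 and 519 CPM in KO. The groups did not overlap, but the WT libraries differed from each other by more than those of any other member in CPM. The log2 fold change was 0.79 (SE 0.27, 95% interval 0.16 to 1.43, adjusted p = 0.0864). Klra4, for Ly49D, was at 199, 430 and 228 CPM in WT and at 381, 365 and 396 CPM in KO, and here WT replicate 2 was above all KO libraries. Its log2 fold change was 0.42 (SE 0.26, 95% interval -0.20 to 1.03, adjusted p = 0.291). At an unadjusted p under 0.05, and by DESeq2 at an adjusted p under 0.05, 1 activating member (Klra8) was higher in KO.

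Klra17 was the 1 member with lower values in KO. It encodes Ly49Q, known as a receptor of plasmacytoid dendritic cells and other myeloid cells rather than of NK cells. It was at 11.1, 6.24 and 6.58 CPM in WT and at 5.06, 4.58 and 2.41 CPM in KO, with every KO library below every WT library. The log2 fold change was -0.99 (SE 0.33, 95% interval -1.77 to -0.22) and did not pass the edgeR test (adjusted p = 0.0813). By DESeq2 it passed (adjusted p = 0.0194), where 1996 of 13955 genes were called lower.

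The markers of the cells that Klra17 is known from moved the same way. All 7 plasmacytoid dendritic cell markers were lower in KO, Siglech (log2 -1.30, SE 0.34) and Spib (log2 -1.27, SE 0.32) past the edgeR test with adjusted p = 0.0481 and 0.0471. Their sums were 1737, 1144 and 1200 CPM in WT and 973, 918 and 740 CPM in KO, so WT replicate 1, the highest library for Klra17, was also the highest for these markers and for the macrophage markers. No marker of these 2 lists was at 0 in any library. The cells had been sorted as NK cells, and the part of other cells in the values of Klra17 was not tested. Klra2, the only other row of the table whose symbol starts with Klra, encodes the myeloid receptor Ly49B, and was at 14.2, 7.60 and 17.6 CPM in WT and at 12.3, 7.06 and 8.01 CPM in KO. Its groups overlapped (log2 -0.53, SE 0.33, adjusted p = 0.277).

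Every KO library lay above every WT library for 7 of the 10 members, 6 inhibitory members and Klra8, where 19.1% of all genes tested did so. DESeq2, the tool the study used, called 7 members higher at an adjusted p under 0.05, where it called 7.85% of genes higher. At the stricter thresholds of the study (0.01 for the adjusted p and 0.5 for the log2 fold change) it called 5 members higher, Klra5, Klra6, Klra7, Klra9 and Klra10, against 2.87% of genes, and 0 of the 2 activating members. By edgeR these thresholds called 0 members and 0 genes of the whole table, while 7 members were higher and 1 lower at an unadjusted p under 0.05, beside 15.8% and 20% of genes.

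The count of called members depended on single libraries. The WT library with Ly49 and NK identity levels nearest to those of KO was WT replicate 2. Without it edgeR called 9 members higher and 1 lower, beside 10.7% of genes called higher and 2097 of 13411 genes called lower. Without WT replicate 1 it called 1 member (Klra10) and 0.263% of genes higher, and without KO replicate 1 it called 3 members and 5.17% of genes higher. It called 0 members without WT replicate 3, KO replicate 2 or KO replicate 3, where 0.045%, 0% and 0% of all genes were called higher. No fold change of a member changed direction when a library was left out.

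**Figure D2:**
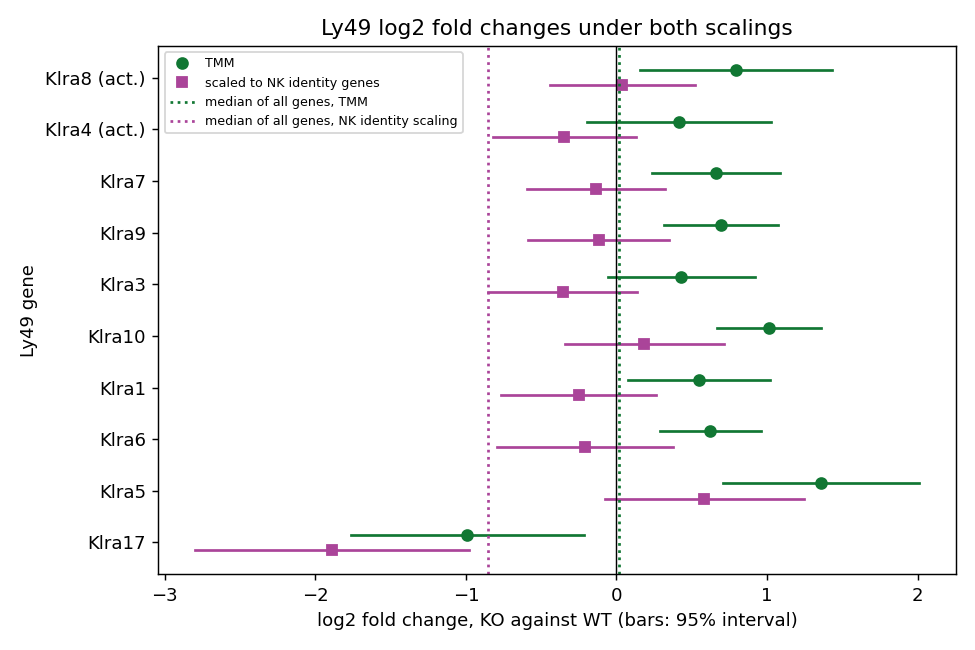
Log2 fold changes of the 10 Ly49 genes in KO against WT with 95% intervals, with TMM scaling (green circles) and with the libraries scaled to the 12 NK identity genes (purple squares), and the median of all genes as a dotted line for each. With TMM 9 of the 10 values are above 0, and with the other scaling 6 of these turn negative while the median of all genes moves from 0.01 to -0.86.

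Summed over the 10 members, Ly49 transcripts reached 783, 1507 and 890 CPM in WT and 1665, 1634 and 1641 CPM in KO, a mean of 1060 ± 391 against 1647 ± 15.9 CPM (SD, n = 3). WT replicate 2 stood apart from the other WT libraries and near the KO libraries. The NK identity genes of the same libraries followed this order in WT, at 5614, 9534 and 5882 CPM, and reached 10751, 12541 and 12395 CPM in KO. All 12 identity genes were higher in KO, 7 of them past the test, with a median log2 fold change of 0.79.

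Divided by the identity sum, the Ly49 sum was 0.140, 0.158 and 0.151 in WT and 0.155, 0.130 and 0.132 in KO, and the groups overlapped. Of the 12 identity genes, Klrb1c, Klrd1, Klre1 and Klrk1 are lectin receptors of the same region of chromosome 6. Il2rb, Tbx21 and Prf1 are also among them, and the paper reports higher mRNA of these genes in KO by RT-qPCR. A change per NK cell in the identity genes would therefore enter this ratio and the scaling. Whether the content of NK cells or the level per NK cell differed between the libraries was not tested.

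**Figure D3:**
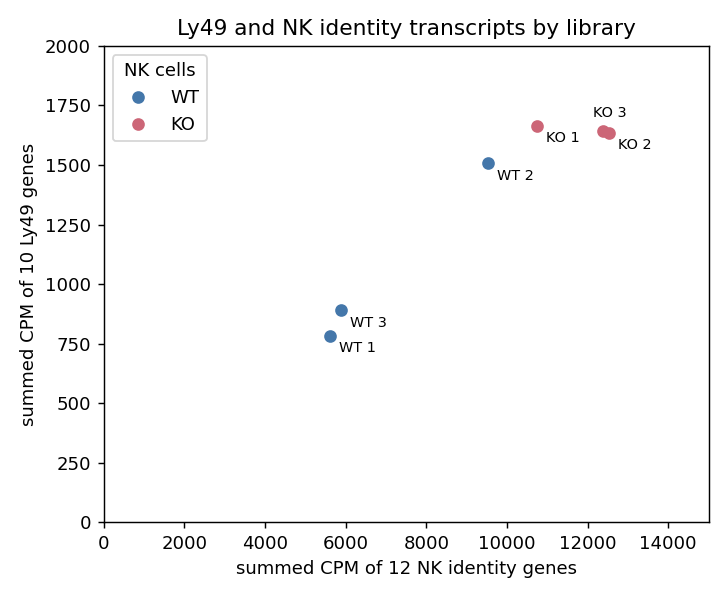
Summed CPM of the 10 Ly49 genes against the summed CPM of the 12 NK identity genes, 1 point for each library. The KO libraries (1634 to 1665 CPM of Ly49 transcripts) and WT replicate 2 (1507 CPM) lie at the upper right, and WT replicates 1 and 3 (783 and 890 CPM) at the lower left.

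With libraries scaled to the identity genes in the edgeR fit, the median of all genes moved to -0.86 and 74.9% of genes were called lower. On this scale 6 members turned negative: Klra1 (-0.25), Klra3 (-0.36), Klra4 (-0.35), Klra6 (-0.21), Klra7 (-0.14) and Klra9 (-0.12). The values of Klra5 (0.58, adjusted p = 0.0954), Klra10 (0.18, adjusted p = 0.494) and Klra8 (0.04, adjusted p = 0.873) stayed positive without passing the edgeR test. Klra17 was the 1 member called, at -1.89 with adjusted p = 0.00303. Relative to the median of all genes the 9 other members were between 0.50 (Klra3) and 1.44 (Klra5) higher on this scale, and between 0.40 (Klra4) and 1.35 (Klra5) higher with TMM.

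Taken gene by gene as a log2 ratio to the identity genes within each library, Klra5 was the only member whose KO libraries all lay above its WT libraries, by 0.61 on average. Klra1 (-0.22), Klra3 (-0.32) and Klra17 (-1.81) had all KO libraries below all WT libraries, and the other 6 overlapped. This ratio does not use library totals, and no test was made of it.

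**Figure D4:**
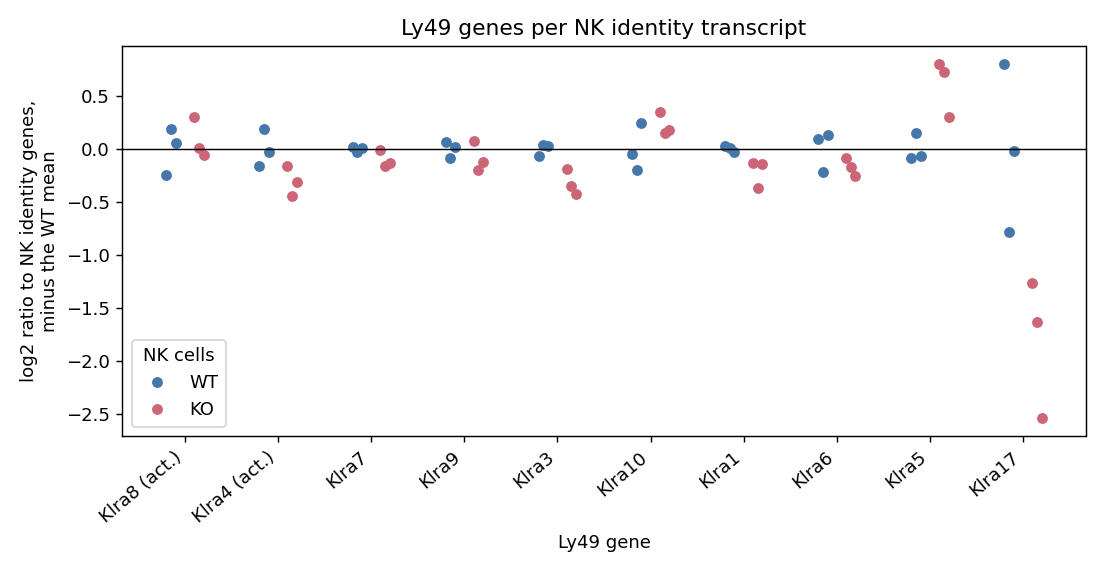
Log2 ratio of each Ly49 gene to the NK identity genes in each library, minus the mean of the WT libraries. The KO points of Klra5 lie above its WT points, those of Klra1, Klra3 and Klra17 lie below theirs, and the other 6 genes overlap.

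The balance of activating and inhibitory transcripts was close between the genotypes. Activating members made up 51.8%, 60.1% and 55.8% of the summed Ly49 CPM in WT and 57.7%, 56.1% and 55.8% in KO, so all KO values lay within the WT range. The mean shares were 55.9 ± 4.16% and 56.5 ± 1.01% (SD, n = 3). The activating sum was 406, 906 and 497 CPM in WT and 960, 917 and 916 CPM in KO, and the inhibitory sum 378, 601 and 393 CPM in WT and 705, 718 and 725 CPM in KO, both without overlap.

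Within the activating pair the make-up differed between the libraries of the 2 genotypes. The ratio of Klra8 to Klra4 was 1.04, 1.11 and 1.18 in WT and 1.52, 1.51 and 1.31 in KO, and this ratio does not depend on how libraries are scaled. Klra8 held 29.4 ± 2.704% of the Ly49 sum in WT and 33.4 ± 1.58% in KO, and Klra4 held 26.5 ± 1.72% and 23.1 ± 0.924% (SD, n = 3). The gap between the groups was narrow for Klra8, whose highest WT library held 31.6% and lowest KO library 31.7%. Klra8 shares part of its sequence with Klra14-ps, as given above, and the part of such reads in the ratio was not tested.

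Among inhibitory members, Klra5 went from 0.486 ± 0.0256% of the Ly49 sum in WT to 0.804 ± 0.123% in KO and Klra10 from 2.47 ± 0.428% to 3.08 ± 0.0620%, with all KO libraries above all WT libraries. Klra3 went from 5.97 ± 0.153% to 5.14 ± 0.198% and Klra17 from 0.856 ± 0.511% to 0.244 ± 0.0845%, with all KO libraries below. The shares of Klra1, Klra6, Klra7 and Klra9 overlapped between the genotypes. These shares were compared without a test.

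**Figure D5:**
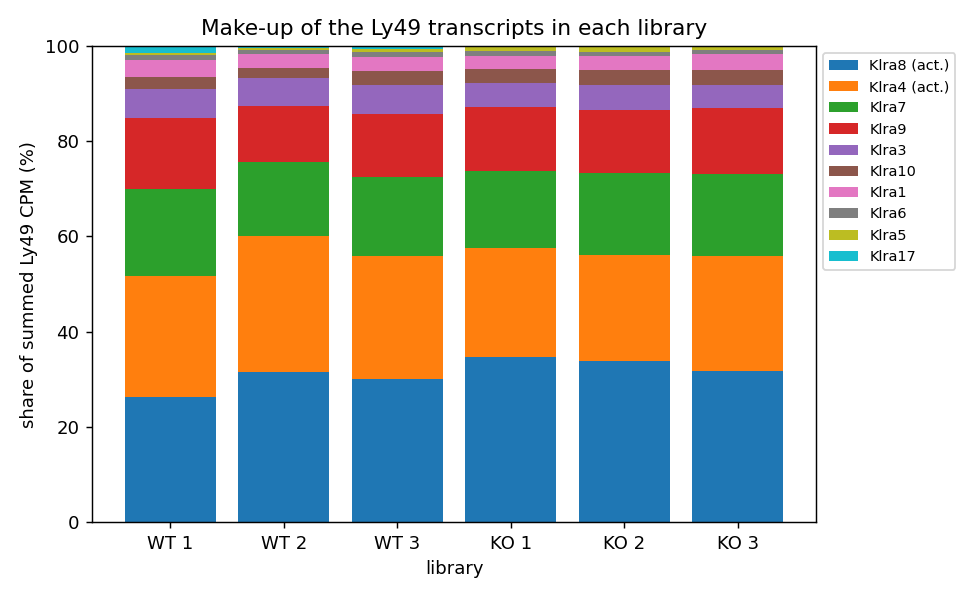
Share of each Ly49 gene in the summed Ly49 CPM of each library, stacked from the most abundant per kb (Klra8, bottom) to the least (Klra17, top). The lower pair of colours, the activating Klra8 and Klra4, takes 51.8% to 60.1% of the sum in WT and 55.8% to 57.7% in KO.

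Other lectin receptors of NK cells were also higher in KO under TMM. With scaling to the NK identity genes, which include some of them, none was called higher. On that scale 3 of the NKR-P1 and related genes were called lower, beside 74.9% of all genes. The medians were 0.07 (CD94/NKG2) and -0.01 (NKR-P1 and related), beside -0.86 over all genes. With TMM, the 5 genes of the CD94/NKG2 group, whose products recognise Qa-1 or stress-induced ligands, were all called higher (Klrc1, Klrc2, Klrc3, Klrd1 and Klrk1), with log2 fold changes between 0.83 and 1.02 and a median of 0.87. Of 10 tested NKR-P1 and related genes, 8 were higher and 5 of these were called: Klrb1a (1.09), Klrg1 (0.95), Klrb1f (0.92), Klre1 (0.84) and Klrb1c (0.81). The Ly49 medians of 0.64 and 0.61 stand beside medians of 0.87 and 0.79 for these groups, and the difference between groups was not tested.

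The signalling partners of the receptors had median log2 fold changes of 0.30 (activating) and 0.01 (inhibitory) with TMM. With scaling to the NK identity genes all of them were negative, as was the median of all genes (-0.86). On that scale 7 activating and 6 inhibitory signalling genes were called lower, beside 74.9% of all genes. Of 13 activating signalling genes, 10 were higher in KO and 1, the kinase gene Lck (log2 0.73, SE 0.19), was called, with adjusted p = 0.0484 by edgeR, while DESeq2 called 4 higher and 1 lower. Tyrobp, which encodes DAP12, the partner of both activating members, had a log2 fold change of 0.32 (SE 0.11, adjusted p = 0.0820 by edgeR and 0.0237 by DESeq2). Of 6 inhibitory signalling genes, 3 were higher and 3 lower with TMM. None of them was called by edgeR, while 2 (Ptpn6 and Abl1) were lower at an unadjusted p under 0.05 and by DESeq2. The 2 genes of highest CPM were at log2 0.06 (Csk, a kinase that holds Src family kinases in check) and -0.59 (Ptpn6, which encodes SHP-1). At an adjusted p of 0.0526, Ptpn6 missed the edgeR threshold, and its KO libraries all lay below its WT libraries.

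On the ligand side, all 12 genes of MHC class I molecules and of their antigen loading and regulation were higher in KO with TMM. With scaling to the NK identity genes all 12 were lower and 7 were called lower. On that scale 74.9% of all genes were called lower and the median of all genes was -0.86. With TMM 6 of the 12 were called higher, H2-Q7 (log2 0.63), H2-Q6 (0.60), Nlrc5 (0.58), H2-Q4 (0.51), H2-K1 (0.47) and Tap2 (0.28). H2-K1 encodes the classical ligand H-2K, which Ly49C and Ly49I are known to bind, and Nlrc5 encodes the transactivator of MHC class I genes. H2 genes are also known to be alike in sequence, so their values may carry a similar uncertainty. How much sequence they share was not measured here. All 14 transcription factor genes with known roles in NK cells or at Ly49 promoters were higher with TMM. With TMM 3 of them were called higher, Tbx21 (0.90), Id2 (0.89) and Nfil3 (0.65). With the other scaling 12 turned negative and 6 were called lower, beside the same 74.9% of all genes. Tcf7, whose product TCF-1 is known to act on Ly49 genes, had a log2 fold change of 0.39 (SE 0.18, adjusted p = 0.158 by edgeR).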

How the data were processed

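The authors trimmed reads with fastp 0.23.4, aligned them to GRCm38/mm10 with STAR 2.7.11b and counted them with HTSeq 2.0.3, and the deposited values are raw counts per gene symbol. The annotation release, strand setting, read length and treatment of multiply mapped reads are not given in the sources used here. Samples were grouped by their titles. The human NK92MI libraries of the series were not used here. Members, lists and tests were chosen with earlier results of these data known.

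Counts were fitted in R 4.3.3 with edgeR 4.0.16 (TMM, filterByExpr, quasi-likelihood test of genotype, no block), and p-values were adjusted by Benjamini-Hochberg over 13189 genes. Named genes were all members, other Klra rows, the called genes of each list or else its 2 of highest CPM, Ehmt2, Ezh2 and the 5 genes most like the Ly49 sum. Tyrobp, Abl1 and Tcf7 were added after their values were seen. The fit was tested on counts simulated with a smaller spread between libraries than these data have. That test therefore does not measure how well the fit recovers changes here. Alternatives used DESeq2 1.42.0, limma-voom 3.58.1, other scalings, filters, the replicate number as a block and the omission of each library. Exon lengths, positions and sequences were read from GENCODE M21 on GRCm38, which is not shown to be the authors' release. Depth of at least 25891680 counts per library left 88 or more counts for every member in every library.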

Additional observations from a re-analysis of the deposited data

How the results depend on the processing

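Of 140 values of single members under the alternatives, 101 kept their direction and their side of the threshold, 15 newly passed it, 18 kept their direction but no longer passed it and 6 changed sign, among which Klra6 and Klra9 also no longer passed it. The sign changes all came with libraries scaled to the NK identity genes: Klra1 -0.25, Klra3 -0.36, Klra4 -0.35, Klra6 -0.21, Klra7 -0.14 and Klra9 -0.12, with a median of -0.17 over inhibitory and -0.15 over activating members, and 1 member called. That scaling moved the median of all genes to -0.86 and called 74.9% of all genes lower. The number of members called was 4 with all libraries by edgeR. By DESeq2 it was 8 (7 higher and 1 lower, beside 1096 and 1996 of 13955 genes). By edgeR at the study's thresholds it was 0, as for all genes. With 1 library left out it was between 0 and 10. The 10 came without WT replicate 2 (9 higher and 1 lower, beside 1433 and 2097 of 13411 genes). The number was 4 or 5 with DESeq2 size factors, library totals, limma-voom, without the filter, or with genes kept from a mean CPM of 1. The cause of the other differences was not tested.

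WT and KO libraries share replicate numbers. Deviations from the group means correlated at 0.28, 0.35 and -0.19 between same-numbered libraries, and not every library correlated best with its own number. With 3 libraries in each group these values do not settle whether the numbers pair the samples. With the replicate block edgeR called 7 members, 6 higher and 1 lower, beside 9.8% of all genes called higher and 1930 of 13189 called lower. Depth limits Klra17 and Klra5 most, which had the lowest counts.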

Other observations

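Over the 6 libraries, the genes outside the Klra family whose log2 CPM followed the summed Ly49 CPM most closely were St7l (Pearson r = 0.997), Miip (0.996), Klhdc2 (0.996), Cdkn2aip (0.995) and Il10rb (0.995), out of 9123 genes with a mean of at least 10 CPM. These values describe 6 libraries that differ together in genotype and in NK identity and macrophage transcripts. The 5 genes had adjusted p between 0.105 and 0.178 in the edgeR test of KO against WT.

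Of 8 markers of type 1 innate lymphoid cells and immature NK cells, where Ly49E is known to be common, 7 were higher in KO with TMM and 8 lower with scaling to the NK identity genes, and with TMM none passed the edgeR test, 3 being higher and 1 lower at an unadjusted p under 0.05 and 2 higher by DESeq2. Their summed CPM was 510, 583 and 401 in WT and 560, 709 and 695 in KO, and the groups overlapped. The part of such cells in the values of Klra5 was not tested.

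Of the 8 tested T cell markers, 2 were higher in KO with TMM (0 with scaling to the NK identity genes) and 6 were lower. Their median log2 fold change with TMM was -0.74. Cd3g was higher past the edgeR test (log2 0.59, SE 0.14, adjusted p = 0.0452). Cd4 was lower (log2 -1.21, SE 0.34), with adjusted p = 0.0560 by edgeR and 0.0453 by DESeq2. The 7 tested neutrophil markers were all lower, with sums of 209, 67.8 and 813 CPM in WT and 83.4, 1.29 and 1.75 CPM in KO, and Ngp and Ltf passed the edgeR test. Of the 6 conventional dendritic cell markers 5 were lower and Clec9a passed it.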
